A study of Mus musculus with 6 samples.

Results

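Collagen chain genes were compared between hearts of wild-type mice and of mice with a knockout of Cenpf, all aged 12 months. A gene was a member when an array probe was annotated with exactly 1 gene symbol built from Col, a number, the letter a and a number. By this rule 46 probes stood for 44 genes, out of 19938 genes with a probe of 1 symbol. Where a gene had 2 probes, as Col6a5 and Col6a6 did, the probe with the higher mean over all hearts was used. The rule itself uses symbols and mean levels, not a difference between groups, and was set with earlier results of these data known. They fall into 11 fibrillar chains, 8 basement membrane chains (type IV together with Col15a1 and Col18a1) and 25 others.

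Collagens are secreted proteins in which 3 chains wind into a triple helix. The fibrillar types build the tension-bearing fibres between muscle cells, and in heart fibroblasts are known as their main source. Type IV chains form a sheet-like network in the basement membranes that surround cardiomyocytes and capillaries. The remaining types coat fibrils, form beaded filaments or short networks, or span the cell membrane. Scarring of the heart is known for an increase in fibrillar collagen.

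The 6 arrays held 1 heart each, 3 wild-type and 3 labelled as cenpf knock-out, and the labels describe the 3 of a group as biological replicates. Mice received no treatment. The sources used here do not give strain, sex, the deleted part of Cenpf or the cells that lost it. Values are on a log2 scale, so a difference of 1 is a 2-fold change. The targeted gene read 8.04 to 8.75 in wild-type and 6.10 to 6.68 in knockout hearts (difference -2.07, standard error 0.21, limma, adjusted p = 0.0286), which checks the labels as far as its probe lies in the deleted part. Defining cardiomyocyte markers stood far above the background level of 6.35 in each heart, for example Tnnt2 at 13.76 to 14.02. That background level is the 95th percentile of the probes for olfactory and vomeronasal receptors, which heart is assumed not to transcribe. Of the probes with 1 symbol 71.2% exceeded it, so a value above it does not establish expression. By the fit's array weights, wild-type replicate 3 and knockout replicate 1 stood apart from their groups, at 0.54 and 0.53 against 1.0 to 2.0 for the other hearts. Values are therefore given with and without these hearts where it matters.

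No collagen gene passed the test between knockout and wild-type hearts. At an adjusted p under 0.05 (limma, Benjamini-Hochberg over 21789 probes), 0 of 44 genes were called, beside 0.0275% of all probes. The lowest adjusted p was 0.486, for Col25a1, and it was also the one member with an unadjusted p under 0.05, a share of 2.27% beside 9.9% of all probes. Of the 44 genes, 23 had a fitted difference above 0 (52.3%, beside 47.9% of all probes) and 21 below. The median difference was 0.0089 on the log2 scale over the members and -0.0082 over all probes. A difference of at least 1.5-fold was reached by 0 members, beside 1.65% of probes.

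The intervals show how large a difference these 6 hearts leave room for. In 38 of 44 genes the 95% interval of the difference lay within 1.5-fold in either direction, that is within 0.585 on the log2 scale, as it did for 82.2% of all probes. The exceptions were Col1a2, Col8a1, Col12a1, Col14a1, Col15a1 and Col18a1. For these a change of that size was not resolved at this number of arrays. Col1a1 lay inside the limit only narrowly, with an interval from -0.583 to 0.223. The interval reached a median of 0.27 to either side of the difference for the collagens and 0.28 for all probes.

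**Figure D1:**
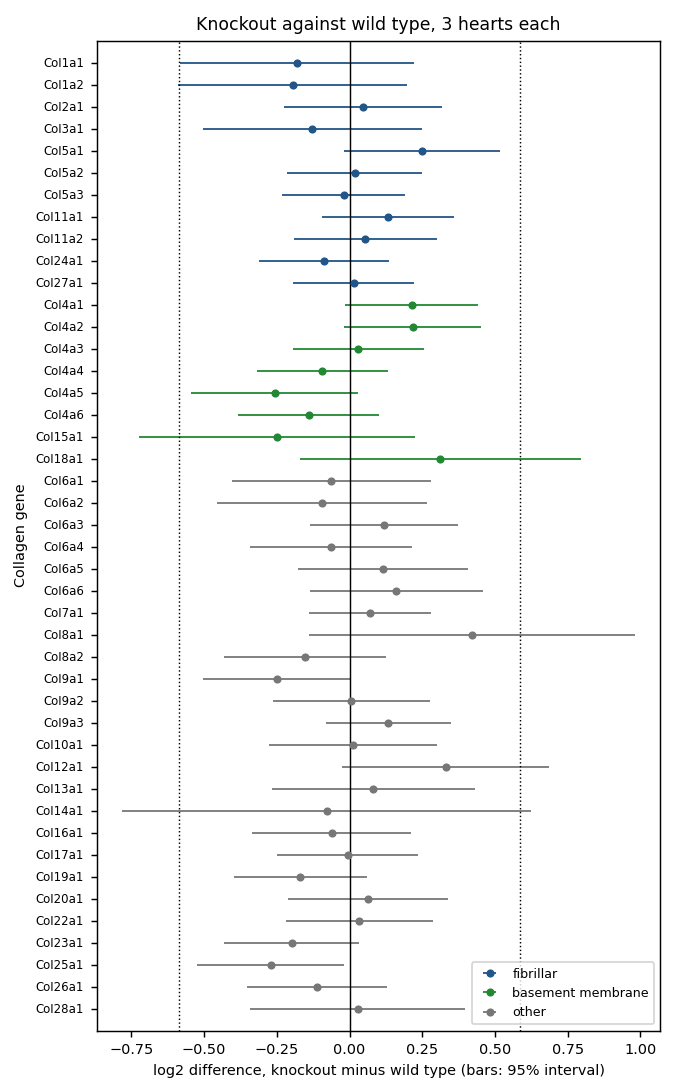
Fitted log2 difference between knockout and wild-type hearts (x axis) for each of the 44 collagen genes (y axis), with its 95% interval as a bar and the classes in colour. Dotted lines mark 1.5-fold in either direction. Every interval but that of Col25a1 includes 0, and 6 reach past a dotted line.

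By class, the 11 fibrillar chains had a median difference of 0.014, with 6 higher and 5 lower. The 8 basement membrane chains had a median of -0.032, with 4 higher and 4 lower. The 25 other chains had a median of 0.0059, with 13 higher and 12 lower. In each class 0 genes were called. The sign of each median depended on the hearts used, as the fibrillar median was -0.037 without knockout replicate 1 and that of the basement membrane chains 0.0032 without knockout replicate 2. That of the other chains was -0.0073 without knockout replicate 1.

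The groups did not overlap for 8 of 44 genes, or 18.2%, beside 14.8% of all probes. Higher in every knockout heart were Col4a1, Col4a2, Col5a1 and Col9a3 (9.09% of members, beside 7.33% of all probes). Lower in every knockout heart were Col4a6, Col9a1, Col23a1 and Col25a1 (9.09%, beside 7.47%). None of these 8 passed the adjusted threshold, and their share lay near the background.

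Among the fibrillar chains, Col1a1, Col1a2 and Col3a1 make the type I and type III collagens of the heart's interstitium. Col1a1 read 9.65, 9.67 and 9.19 in wild-type replicates 1, 2 and 3 and 9.63, 9.21 and 9.13 in knockout replicates 1, 2 and 3. The groups overlapped, with wild-type replicate 3 among the low values and knockout replicate 1 among the high ones. The means were 9.502 ± 0.27 and 9.32 ± 0.27 (SD, n = 3), a difference of -0.18 with a standard error of 0.18 (by limma, adjusted p = 0.754). Col1a2, the partner chain in type I collagen, read 9.44, 9.59 and 9.04 in wild-type and 9.41, 8.93 and 9.15 in knockout hearts. Its difference was -0.20 with a 95% interval from -0.59 to 0.20. Col3a1 read 9.07, 9.04 and 8.58 in wild-type and 9.01, 8.63 and 8.67 in knockout hearts, and its difference was -0.13. In all 3 genes wild-type replicates 1 and 2 and knockout replicate 1 lay above the remaining hearts.

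Leaving out either of the hearts that stand apart enlarged these differences without a call. Without knockout replicate 1, Col1a1 differed by -0.33, Col1a2 by -0.32 and Col3a1 by -0.25. Without wild-type replicate 3 the same genes differed by -0.34, -0.35 and -0.29. Leaving out any other single heart gave differences between -0.19 and -0.04. None of the genes passed in these fits.

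The promoter windows of Col1a2 and Col3a1 are printed because these chains shared their high and low hearts. They come from RefSeq (GRCm38.p6) and run from 250 bases before to 50 bases after the annotated start. The table held windows for 35 of the 44 genes, without one for Col1a1. Capitals mark matches on either strand to CCAAT, to GGGCGG (a GC box) or to TATAAA.
Col1a2, chr6:4505368-4505667, plus strand: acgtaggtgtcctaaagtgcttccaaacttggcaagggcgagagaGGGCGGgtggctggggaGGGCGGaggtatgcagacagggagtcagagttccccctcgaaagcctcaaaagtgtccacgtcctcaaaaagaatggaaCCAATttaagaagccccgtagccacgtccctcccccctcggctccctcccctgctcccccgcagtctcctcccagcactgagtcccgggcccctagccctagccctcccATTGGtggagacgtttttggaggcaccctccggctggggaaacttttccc
Col3a1, chr1:45311288-45311587, plus strand: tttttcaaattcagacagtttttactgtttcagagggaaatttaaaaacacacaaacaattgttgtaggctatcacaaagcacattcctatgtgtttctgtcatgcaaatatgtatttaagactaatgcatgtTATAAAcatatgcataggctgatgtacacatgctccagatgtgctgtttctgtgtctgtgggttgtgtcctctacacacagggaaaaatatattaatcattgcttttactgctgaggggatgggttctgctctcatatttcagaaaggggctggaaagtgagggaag
The Col1a2 window held 2 CCAAT and 2 GC box matches and no TATAAA, with 61.0% G and C. The Col3a1 window held 1 TATAAA match and neither of the others, with 37.7% G and C. Over all 32851 windows of this length, 37.4% held CCAAT, 35.7% the GC box and 13.6% TATAAA. Among the 38 windows of collagen genes the shares were 34.2%, 60.5% and 13.2%. A match describes letters only and was not tied to binding.

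Type V chains join type I fibrils and limit their width. Col5a1 read 7.92, 7.71 and 7.92 in wild-type and 8.10, 8.25 and 7.95 in knockout hearts. Every knockout heart lay above every wild-type heart, though knockout replicate 3 did so narrowly. The difference was 0.25 with a standard error of 0.12 (by limma, adjusted p = 0.527). Col5a2, whose chain assembles with that of Col5a1, did not share the order, at 7.45, 7.32 and 7.30 in wild-type and 7.49, 7.30 and 7.34 in knockout hearts. It differed by 0.02, with a 95% interval from -0.22 to 0.25. Col5a3 differed by -0.02.

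The other fibrillar chains are known from cartilage or as minor fibril components. Col11a1 differed by 0.13, Col11a2 by 0.05 and Col2a1, the main cartilage collagen, by 0.05. Col24a1 differed by -0.09 and Col27a1 by 0.01. Col27a1 varied least of all 44 genes, over a range of 0.12 between its lowest and highest heart, beside a median range of 0.39. Of 8 cartilage markers 4 exceeded the background level in either group, among them Sox9 (wild-type mean 8.47, knockout mean 8.39) and Cnmd (7.20 and 7.77). Acan, the main cartilage proteoglycan, was below that level in both groups at 6.30 and 6.04. Between groups 4 of the 8 markers were higher and 4 lower in the knockout hearts, with a median of 0.12 and 0 called.

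**Figure D2:**
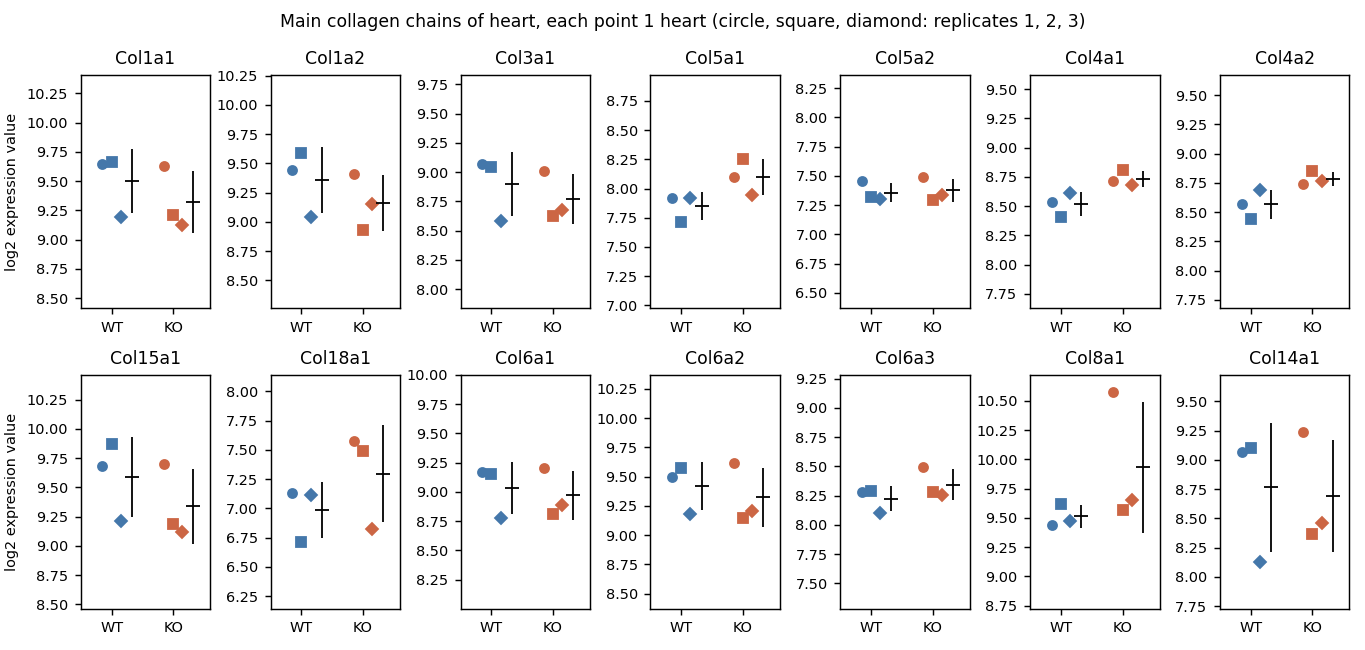
Log2 expression value (y axis) of the 14 collagen chains known from adult heart, in wild-type (WT, blue) and knockout (KO, orange) hearts, each symbol 1 heart. Black bars give mean and SD (n = 3), and each panel spans 2 log2 units around its gene's mean. The groups separate for Col4a1, Col4a2 and Col5a1, while Col1a1, Col1a2 and Col3a1 have 1 low wild-type and 1 high knockout heart.

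Col4a1 and Col4a2 encode the chains of the common type IV network of basement membranes. Col4a1 read 8.53, 8.41 and 8.61 in wild-type and 8.71, 8.80 and 8.68 in knockout hearts. The groups did not overlap, and the means were 8.52 ± 0.10 and 8.73 ± 0.07 (SD, n = 3). The difference of 0.21, with a standard error of 0.10, did not pass (limma, adjusted p = 0.527). Col4a2 read 8.57, 8.44 and 8.69 in wild-type and 8.74, 8.85 and 8.76 in knockout hearts. It again had all knockout hearts on top, and its difference of 0.22 with a standard error of 0.10 did not pass either (adjusted p = 0.529). Leaving out any 1 heart kept both differences above 0, between 0.16 and 0.26 for Col4a1 and between 0.15 and 0.28 for Col4a2.

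These neighbouring genes lie head to head on opposite strands, with annotated starts 21 bases apart. Each start lies inside the other gene, so the annotated transcripts overlap at their 5′ ends. Their promoter windows share 78 bases, which include the 50 bases after each start. The windows are printed because these 2 genes followed each other most closely of 8 pairs compared. Each is given 5′ to 3′ on its own gene's strand (RefSeq, GRCm38.p6), and capitals mark the shared stretch, which is the same DNA read from opposite strands.
Col4a1, chr8:11312777-11313076, minus strand: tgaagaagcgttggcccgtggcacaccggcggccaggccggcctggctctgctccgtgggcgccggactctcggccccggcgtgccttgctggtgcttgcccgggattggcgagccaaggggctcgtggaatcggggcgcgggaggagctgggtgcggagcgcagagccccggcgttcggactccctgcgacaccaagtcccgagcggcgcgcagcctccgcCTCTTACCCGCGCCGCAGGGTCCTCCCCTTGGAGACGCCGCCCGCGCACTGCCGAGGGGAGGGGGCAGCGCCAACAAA
Col4a2, chr8:11312555-11312854, plus strand: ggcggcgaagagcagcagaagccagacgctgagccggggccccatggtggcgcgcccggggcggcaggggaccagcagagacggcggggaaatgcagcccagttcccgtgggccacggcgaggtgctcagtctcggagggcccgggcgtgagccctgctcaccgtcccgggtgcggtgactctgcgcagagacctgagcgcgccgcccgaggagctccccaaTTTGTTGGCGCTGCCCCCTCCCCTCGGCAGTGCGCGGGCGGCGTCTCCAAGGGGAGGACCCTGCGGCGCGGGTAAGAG
The windows held 74.0% and 73.7% G and C. The Col4a1 window held 1 CCAAT and 1 GC box match, that of Col4a2 1 and 3, and neither held TATAAA.

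Taken as the deviation from a gene's own mean over the 6 hearts, Col4a1 and Col4a2 differed from each other by at most 0.033 in any heart. For Col6a1 and Col6a2, another neighbouring pair, that gap was at most 0.052. It reached 0.12 for Col1a1 and Col3a1, 0.17 for Col1a1 and Col1a2, 0.20 for Col4a3 and Col4a4 and 0.23 for Col4a5 and Col4a6. The widest were 0.35 for Col5a1 and Col5a2 and 0.79 for Col8a1 and Col8a2. These gaps are descriptions over 6 shared arrays.

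The chains of the other type IV networks did not follow Col4a1 and Col4a2. Col4a5, whose human counterpart is mutated in X-linked Alport syndrome, read 7.79, 7.70 and 7.40 in wild-type and 7.28, 7.37 and 7.47 in knockout hearts. Wild-type replicate 3 lay below knockout replicate 3, so the groups overlapped. The difference was -0.26 with a standard error of 0.13 (by limma, adjusted p = 0.538), and without wild-type replicate 3 it was -0.37. Col4a6, its neighbour on the X chromosome, differed by -0.14 without overlap, from 6.57 ± 0.01 to 6.43 ± 0.15 (SD, n = 3), close to the background level of 6.35. Without knockout replicate 2, which read 6.26, the Col4a6 difference was -0.055. The promoter windows of this pair lay 842 bases apart and shared none. Col4a3 and Col4a4 differed by 0.03 and -0.09.

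**Figure D3:**
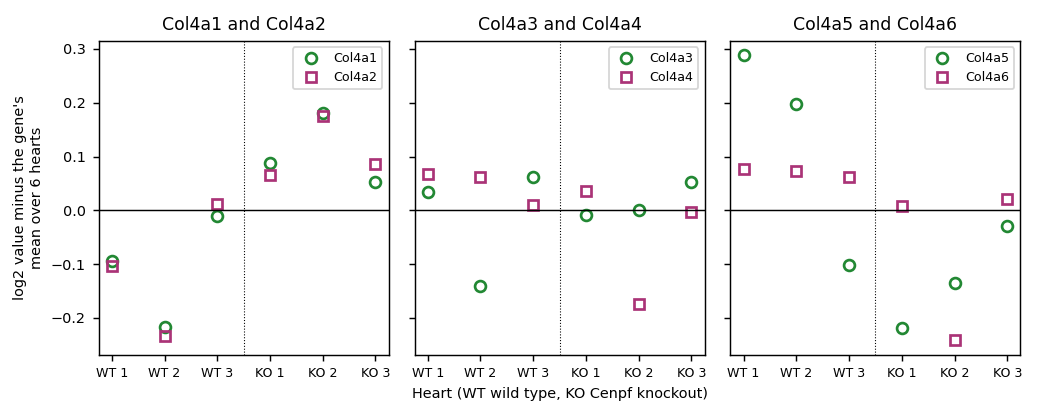
Deviation of each heart's log2 value from the gene's mean over 6 hearts (y axis) for the 3 pairs of neighbouring type IV genes, by heart (x axis; WT wild type, KO knockout). Col4a1 and Col4a2 lie within 0.033 of each other in each heart, and the pairs Col4a3 with Col4a4 and Col4a5 with Col4a6 lie up to 0.20 and 0.23 apart.

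Col15a1 and Col18a1 encode proteoglycan collagens of the basement membrane zone, and the end fragment of the second is endostatin. Col15a1 read 9.68, 9.87 and 9.21 in wild-type and 9.70, 9.19 and 9.12 in knockout hearts. Its high and low hearts were those of Col1a1. The difference of -0.25 (95% interval -0.73 to 0.22) became -0.43 when knockout replicate 1 was left out, -0.44 when wild-type replicate 3 was and -0.11 when wild-type replicate 2 was. Col18a1 read 7.13, 6.71 and 7.11 in wild-type and 7.58, 7.49 and 6.82 in knockout hearts. Knockout replicate 3 fell among the wild-type values, so the difference of 0.31 (95% interval -0.17 to 0.80) became 0.55 without it. Leaving out knockout replicate 1 gave 0.17, wild-type replicate 2 gave 0.18 and knockout replicate 2 gave 0.22.

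Type VI collagen forms beaded filaments that link cells to the surrounding fibres. Col6a1 read 9.17, 9.15 and 8.78 in wild-type and 9.20, 8.81 and 8.89 in knockout hearts. Col6a2 read 9.495, 9.57 and 9.18 in wild-type and 9.61, 9.15 and 9.21 in knockout hearts. In both, the 3 high and the 3 low hearts were those of Col1a1, and they differed by -0.06 and -0.09 between groups (limma, adjusted p = 0.915 and 0.865). Without knockout replicate 1 these became -0.18 and -0.24. Col6a3, the large chain that joins them, read 8.28, 8.29 and 8.10 in wild-type and 8.49, 8.28 and 8.25 in knockout hearts and differed by 0.12, or by 0.042 with knockout replicate 1 left out and 0.056 with wild-type replicate 3 left out. The alternative chains Col6a4, Col6a5 and Col6a6 differed by -0.06, 0.12 and 0.16. The second probe of Col6a6 gave 0.35 and that of Col6a5, below the background level, 0.02.

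Col8a1, a short-chain collagen of vessel walls and remodelling tissue, had the largest difference of the 44 genes at 0.42, and it came from 1 heart. It read 9.44, 9.62 and 9.48 in wild-type and 10.58, 9.57 and 9.65 in knockout hearts. Apart from knockout replicate 1, all values lay between 9.44 and 9.65. The difference had a standard error of 0.24 (by limma, adjusted p = 0.592) and was 0.10 without knockout replicate 1. Its partner chain Col8a2 differed by -0.15 and Col10a1, known from growth cartilage, by 0.01.

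The fibril-associated chains sit on the surface of other collagens' fibrils. Col14a1 read 9.07, 9.11 and 8.13 in wild-type and 9.24, 8.37 and 8.46 in knockout hearts. It varied over 1.11 log2 units, second to the 1.14 of Col8a1, with a difference of -0.08 between groups (95% interval -0.78 to 0.62). Leaving out knockout replicate 1 gave -0.35 and wild-type replicate 3 gave -0.40, while leaving out any 1 of the other hearts gave values from 0.037 to 0.090. Col12a1 read 6.28, 6.45 and 6.19 in wild-type and 6.96, 6.57 and 6.39 in knockout hearts. Its wild-type mean of 6.31 did not reach the background level, and the difference of 0.33 was 0.17 without knockout replicate 1.

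Col9a1 read 7.26, 7.35 and 7.34 in wild-type and 7.25, 7.02 and 6.94 in knockout hearts, a separation of the groups by less than 0.01. Its difference was -0.25 with a standard error of 0.11 (by limma, adjusted p = 0.514). The other type IX chains did not share it, since Col9a2 differed by 0.01 and Col9a3, without overlap, by 0.13. Of the remaining fibril-associated chains, Col19a1 differed by -0.17, Col20a1 by 0.06, Col16a1 by -0.06 and Col22a1 by 0.03.

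Transmembrane collagens are anchored in the cell surface. Of these 4 genes 3 were lower, with a median of -0.10, from -0.15 to -0.063 with 1 heart left out. Col25a1 read 6.99, 6.93 and 6.999 in wild-type and 6.68, 6.87 and 6.55 in knockout hearts. Its wild-type hearts varied little (SD 0.04, n = 3) and all lay above the knockout hearts, and the difference was -0.27 with a standard error of 0.11 (by limma, adjusted p = 0.486). Col23a1 read 7.85, 7.81 and 7.85 in wild-type and 7.67, 7.74 and 7.49 in knockout hearts, again without overlap, and differed by -0.20 (adjusted p = 0.550), or by -0.13 with knockout replicate 3 left out. Col13a1, found at neuromuscular and cell-matrix contacts, differed by 0.08 and Col17a1, a protein of skin hemidesmosomes, by -0.01. Among the last 3 genes, Col7a1 of skin anchoring fibrils differed by 0.07, Col26a1 by -0.11 and Col28a1 by 0.03.

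**Figure D4:**
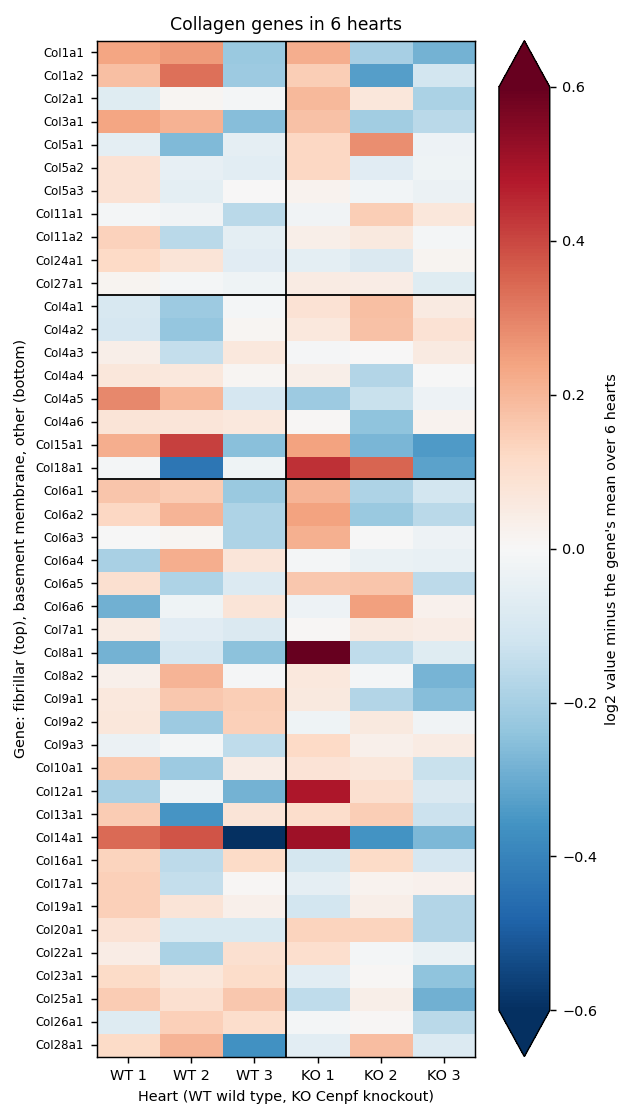
Log2 value of each heart minus the gene's mean over the 6 hearts (colour, red above and blue below) for the 44 collagen genes (rows, by class) in wild-type (WT) and knockout (KO) hearts (columns). Columns WT 3, KO 2 and KO 3 are blue for Col1a1, Col1a2, Col3a1, Col6a1, Col6a2, Col14a1 and Col15a1, and WT 1, WT 2 and KO 1 are red.

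Class means varied between hearts of the same group. The mean deviation of the 11 fibrillar chains was 0.088, 0.029 and -0.10 in wild-type replicates 1, 2 and 3 and 0.091, -0.028 and -0.076 in knockout replicates 1, 2 and 3. Knockout replicate 1 lay above the gene's own mean in 9 of 11 fibrillar chains, and wild-type replicate 3 in 1 of 11. Over all 44 genes, wild-type replicates 1, 2 and 3 did so in 31, 21 and 18 and knockout replicates 1, 2 and 3 in 30, 25 and 10. These counts were not set beside those of all probes.

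The mean deviation of fibroblast markers had the sign of that of the fibrillar chains in each heart, but not its size or order. In wild-type replicate 2 and knockout replicate 2 it was 0.33 and -0.38, beside 0.029 and -0.028 for the fibrillar chains. The list held 10 genes without any collagen, among them Pdgfra, Tcf21 and Dcn, and all 10 lay above the background level. Their mean deviation ran from -0.23 to 0.33 in wild-type and from -0.38 to 0.38 in knockout hearts. It was high in wild-type replicate 2 and knockout replicate 1, where 10 of 10 markers lay above their own mean, and low in wild-type replicate 3 and knockout replicate 2, with 0 of 10. Between groups 8 of 10 were lower in the knockout hearts, with a median of -0.091 and 0 called. With 1 heart left out, that median became -0.32 (knockout replicate 1), -0.23 (wild-type replicate 3), 0.028 (wild-type replicate 2) or 0.075 (knockout replicate 2), so its sign depended on the hearts included. Activated fibroblast markers ran from -0.26 to 0.24 in wild-type and from -0.21 to 0.19 in knockout hearts, with 4 of 8 higher, a median of -0.029 and 0 called. Among them Acta2, the smooth muscle actin of vessel walls and myofibroblasts, was named after its values were seen. It read 12.96, 12.76 and 11.07 in wild-type and 11.07, 10.66 and 11.20 in knockout hearts, a difference of -1.28 (limma, adjusted p = 0.455). Acta2 weighed most on the list means of wild-type replicates 1 and 2. Also lower were Cthrc1 (-0.25), Thbs4 (-0.23) and Fn1 (-0.10). Higher were Fap (0.24, without overlap), Comp (0.23), Tnc (0.22) and Postn (0.05). Macrophage markers, 8 of 8 above the background level, were highest in knockout replicate 1 at 0.42, where all 8 lay above their own mean, and ran from -0.29 to 0.18 in the other hearts. The part of these cells in the collagen values was not tested. In whole-heart RNA, fewer cells of a type and less RNA per cell cannot be told apart.

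Endothelial markers, from cells known to make type IV collagen, had a higher list mean in each knockout heart than in any wild-type heart. The single markers did not all share this order. The groups did not overlap for 3 of 8, higher in the knockout hearts, beside 7.33% of all probes. Knockout replicate 3 lay above the marker's own mean in 4 of 8. Of 8 markers 6 were higher, with 0 called and a median of 0.12. The mean deviation ran from -0.073 to -0.033 in wild-type and from 0.00070 to 0.10 in knockout hearts. Kdr, a receptor for vascular endothelial growth factor, differed by 0.43 without overlap (limma, adjusted p = 0.391), the largest difference of the list. The order of the list mean relied on Kdr. Emcn, another endothelial marker, differed by -0.27. The part of endothelial cells in the type IV values was not tested. Cardiomyocyte markers ran from -0.071 to 0.089 over all hearts, with 6 of 9 higher and 0 called. The markers of smooth muscle and pericytes, mesothelium, Schwann cells, adipocytes and keratinocytes had 4 of 8, 2 of 7, 3 of 4, 0 of 5 and 2 of 5 members higher, with 0 called in each list.

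**Figure D5:**
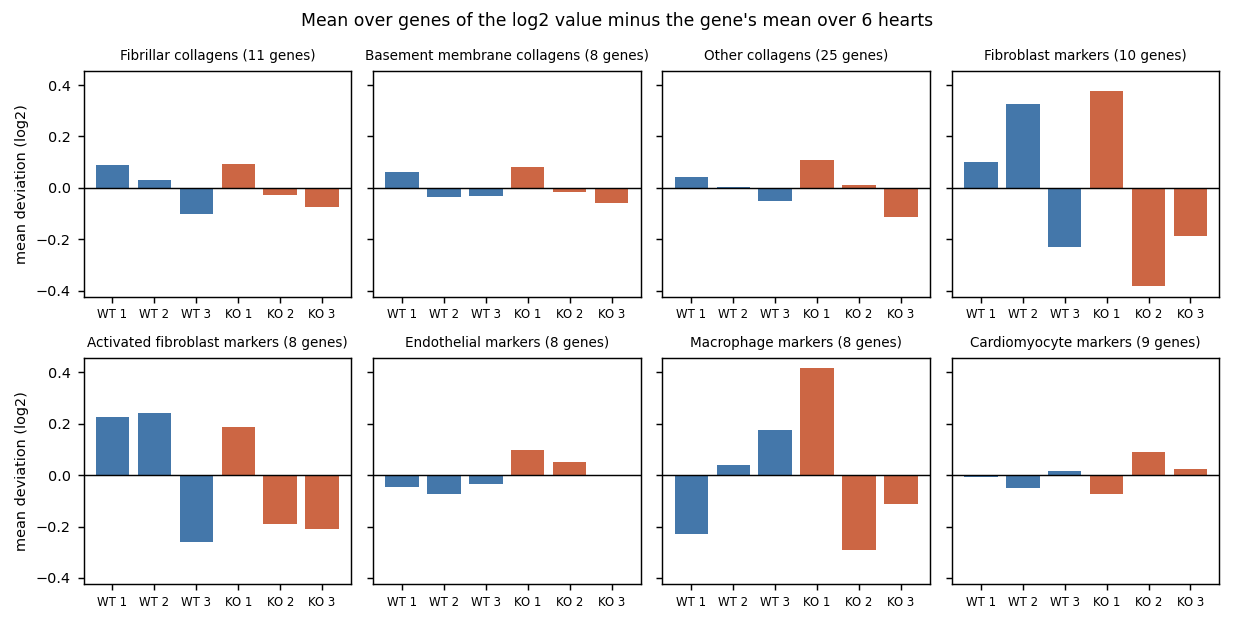
Mean over the genes of a list of the log2 value minus the gene's own mean over 6 hearts (y axis), in wild-type (WT, blue) and knockout (KO, orange) hearts (x axis), for 3 collagen classes and 5 marker lists without collagens. Fibrillar chains and fibroblast markers are above 0 in WT 1, WT 2 and KO 1 and below 0 in WT 3, KO 2 and KO 3.

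Genes that make, cut, bind and degrade collagen were taken as 6 lists, of which 50 of 54 genes had a probe. Mmp3 was the 1 of these 50 that passed, beside 0.0275% of all probes. The lists were chosen with earlier results of these data known, so this count says nothing about the pathway as a whole. Of the 17 genes for chain modification and folding 10 were higher and 7 lower, with a median of 0.056 and 0 called. That median was -0.0062 with knockout replicate 1 left out and 0.0052 with wild-type replicate 3 left out. P3h2, a prolyl 3-hydroxylase that acts on type IV collagen, differed by 0.37 without overlap (limma, adjusted p = 0.459), from 7.89 ± 0.16 to 8.27 ± 0.20 (SD, n = 3). Mia3, which helps to export bulky procollagen, differed by 0.18, also without overlap, and P4ha1, a prolyl 4-hydroxylase subunit, by 0.15.

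Of 7 genes for cutting propeptides 3 were higher and 4 lower, with 0 called. Adamts3, a procollagen protease, differed by -0.28, and the enhancers of procollagen cutting Pcolce2 and Pcolce by 0.28 and 0.14. These differences came from knockout replicate 1. Adamts3 read 7.51, 8.47 and 8.17 in knockout replicates 1, 2 and 3, beside a wild-type mean of 8.33. Pcolce2 read 10.61, 9.61 and 9.73, beside 9.71. Pcolce read 11.46, 10.92 and 10.98, beside 10.98. Of 4 genes for crosslinking by lysyl oxidases 3 were higher, with 0 called. Loxl3, Lox and Loxl1 differed by 0.19, 0.18 and -0.11. Of 9 receptors 5 were higher, with 0 called, and the integrin chains Itga1, Itga2 and Itgb1 differed by 0.19, -0.28 and -0.12.

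Of 7 genes for degradation 5 were higher. Mmp3, a matrix protease, read 5.87, 5.93 and 6.18 in wild-type and 8.11, 7.74 and 8.22 in knockout hearts. It rose by 2.03 with a standard error of 0.15 (by limma, adjusted p = 0.00672), and since the wild-type mean did not reach the background level the size is uncertain. The collagen-degrading cathepsin Ctsk differed by 0.53 without overlap but did not pass (adjusted p = 0.401), and the collagenase Mmp13 by 0.10. Of 6 profibrotic signals 4 were higher, with a median of 0.20 and 0 called, or 0.066 without knockout replicate 1. Pdgfb, a growth factor for mesenchymal cells, read 8.61, 8.63 and 8.89 in wild-type and 9.15, 9.02 and 9.15 in knockout hearts, a difference of 0.40 (adjusted p = 0.391). Ccn2, the connective tissue growth factor, differed by 0.38 and Tgfb2 by 0.28, with knockout replicate 1 the highest heart in both.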

How the data were processed

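Transcripts of 6 hearts were measured on Affymetrix mouse gene arrays. The deposited values are log2 expression values. The submitters' processing notes name RMA and Partek 6.6, and the sources used here state neither settings nor a genome build. Array medians lay between 6.92 and 6.97 over 35556 probes, so no further normalization was applied. Precision is limited by the number of arrays.

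Probes were named from the platform annotation, which gave 21789 probes exactly 1 symbol. These were fitted with limma 3.58.1 in R 4.3.3 (lmFit and eBayes, knockout minus wild-type, two-sided), with Benjamini-Hochberg adjustment. The fit was tested on simulated data. The members, classes and gene lists were chosen with earlier results of these data known. Named with all values were 14 chains known from heart and the 8 members of smallest p. Of each pathway list the 3 genes of smallest p were named. Same-numbered hearts gave no sign of pairing, with correlations of their deviations of -0.11, -0.16 and -0.003. The labels do not state whether hearts were paired, and these values cannot decide it. Alternatives were 3 normalizations, a filter on dim probes, other variance models and probe rules, the replicate block and leaving out each heart. Figures were drawn with matplotlib 3.10.9.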

Additional observations from a re-analysis of the deposited data

How the results depend on the processing

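The count of 0 collagen genes called was kept under 9 other settings (3 normalizations, a filter on dim probes, a test over all probes, probes averaged per gene, array weights, a robust variance model with a trend and the replicate block) and without each of the 6 hearts, with a lowest adjusted p of 0.169 (limma), for Col4a5 without wild-type replicate 3. It was 1 at an unadjusted p under 0.05. Over all probes, the 6 calls became 1 with all probes tested, 22 with the trend and robust model, 33 with array weights and 11 with the replicate block. They became 293 without wild-type replicate 3 and ranged from 1 to 6 when any other single heart was left out. The replicate block used numbers that are not stated to pair the hearts. Class medians moved by less than the spread between hearts under these settings, and with 1 heart left out ranged from -0.037 to 0.035 for fibrillar, from -0.060 to 0.0032 for basement membrane and from -0.016 to 0.065 for other chains. Array weights gave -0.034 for the fibrillar chains and -0.033 for the others. Type IV chains alone gave -0.032. Of the 19 chains named with all values, the sign of 3 turned. Col5a2 gave -0.034 with array weights and ranged from -0.040 to 0.066 with 1 heart left out, and Col6a1 and Col14a1 ranged from -0.19 to 0.016 and from -0.40 to 0.090. The number of arrays limits all of these.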
